A study of Mus musculus with 14 samples.

Results

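The G1 cyclins, their kinases and their inhibitors were followed in KL974 cells, a line of mouse acute myeloid leukemia (AML), with and without knockdown of Ogdh, which encodes the E1 subunit of the 2-oxoglutarate dehydrogenase complex of the mitochondria. The 10 genes were taken by symbol from a table of read counts for 53465 genes: the D cyclins Ccnd1, Ccnd2 and Ccnd3, the E cyclins Ccne1 and Ccne2, the kinases Cdk2, Cdk4 and Cdk6, and the inhibitors Cdkn1b (p27) and Cdkn2c (p18). Of these, 9 had enough counts to be among the 10791 genes tested, and Ccnd1 had not.

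All 14 libraries came from the same line, whose genotype is labelled Trp53R172H;shMll3;shNf1, so every group carried mutant Trp53 and hairpins against Mll3 and Nf1. Growth medium contained IL3, IL6 and SCF as cytokines. A lentivirus had given the cells a short hairpin RNA, linked to blue fluorescent protein (BFP), and doxycycline turned both on. The 7 groups of 2 libraries were cells with the control hairpin shRen713 at day 0 (untreated), the same control cells sorted as BFP negative or BFP positive at day 2 and at day 4 of doxycycline, and BFP positive cells with shOgdh346 or with shOgdh2081 at day 4. Uninduced cells with an Ogdh hairpin, and Ogdh hairpins at day 2, are not among these groups. Comparisons with day 0 combine time, doxycycline and sorting. Whether the 2 libraries of a group came from separate cultures is not labelled. The p-values therefore rest on the spread of these libraries, which may be technical.

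Library totals ran from 913482 to 10271698 counts, and the shallowest were shOgdh2081 replicate 1 (913482) and shOgdh346 replicate 2 (1159021). Ogdh itself was at 247 and 267 counts-per-million (CPM) in control BFP positive cells of day 4. The shOgdh346 libraries had 60.8 and 60.8 CPM and the shOgdh2081 libraries 51.5 and 52.3 CPM of it. The label of the line was checked against markers, as CPM of the whole library. Kit, the SCF receptor, was at 464 to 578 CPM, but the myeloid progenitor markers Mpo, Cd34, Flt3 and Cebpa had 0 counts in 13, 13, 12 and 14 of the 14 libraries. Erythroid genes were present, with the transcription factors Gata1 at 295 to 353 CPM and Klf1 at 179 to 256 CPM. The mast cell list was mixed, and its 7 genes summed to 148 to 265 CPM. Gata2 was at 75.9 to 235 CPM and Ms4a2 at 17.3 to 127.7 CPM. Cpa3 and Cma1 had medians of 1.39 and 2.46 CPM. Tpsb2, Mcpt8 and Fcer1a had 0 counts in 14, 13 and 7 libraries. The summed granulocyte and lymphoid markers did not exceed 1.09 and 1.00 CPM in any library.

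In G1, D cyclins bind CDK4 or CDK6 and E cyclins bind CDK2, and the active kinases phosphorylate the retinoblastoma protein RB, which releases E2F transcription factors and lets the cell enter S phase. The p27 protein binds cyclin-CDK complexes and restrains CDK2 above all, whereas p18 belongs to the INK4 family and binds CDK4 and CDK6. Hematopoietic cells rely on cytokine signals to keep D cyclins up, and CDK6 and cyclins D2 and D3 are the forms that blood cells are known for.

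Promoters of Cdk2, Ccne1 and Cdk4 are shown first. They were chosen after the results were seen, in which Cdk2 and Ccne1 were lower after Ogdh knockdown and Cdk4 was not found to change. The sequences are from RefSeq on GRCm38.p6, run 5′ to 3′ on the strand of the gene, and span 250 bases before to 50 bases after the annotated start. Capitals mark exact matches, on either strand, to the E-box CACGTG or to 4 forms of the E2F site. These forms were TTCCCGC, its variants TTGGCGC and also TTCGCGC, as well as TTGCCGC. No window held matches to both motifs, and no matches overlapped. In Cdk2 the matches lie on the other strand. Cdk2 lies at chr10:128705002-128705301 on the minus strand, Ccne1 at chr7:38107441-38107740 on the minus strand and Cdk4 at chr10:127063285-127063584 on the plus strand.
Cdk2: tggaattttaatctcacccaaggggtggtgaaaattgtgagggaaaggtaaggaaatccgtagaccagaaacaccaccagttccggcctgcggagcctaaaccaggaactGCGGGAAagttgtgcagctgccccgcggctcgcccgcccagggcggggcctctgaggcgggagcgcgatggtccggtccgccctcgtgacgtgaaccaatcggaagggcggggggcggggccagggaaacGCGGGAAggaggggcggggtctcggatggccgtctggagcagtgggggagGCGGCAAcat
Ccne1: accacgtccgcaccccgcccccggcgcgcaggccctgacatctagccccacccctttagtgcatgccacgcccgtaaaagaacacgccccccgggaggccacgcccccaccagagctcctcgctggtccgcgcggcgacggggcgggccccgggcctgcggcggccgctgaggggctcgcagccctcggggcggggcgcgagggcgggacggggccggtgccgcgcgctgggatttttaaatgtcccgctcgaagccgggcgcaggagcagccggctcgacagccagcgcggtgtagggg
Cdk4: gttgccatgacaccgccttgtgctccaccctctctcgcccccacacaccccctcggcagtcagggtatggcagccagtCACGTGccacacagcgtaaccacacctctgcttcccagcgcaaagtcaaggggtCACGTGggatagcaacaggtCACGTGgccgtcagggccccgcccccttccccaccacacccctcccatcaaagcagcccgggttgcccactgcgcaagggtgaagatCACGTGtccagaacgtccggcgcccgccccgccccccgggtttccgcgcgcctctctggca

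The Cdk2 window held 3 E2F matches, whose first bases lie 140 and 10 bases before the start and 40 bases after it, and 0.131% of the 32851 RefSeq mouse windows held at least 3. The Cdk4 window held 4 E-boxes, 172, 118, 98 and 11 bases before the start, and 0.0244% of all windows held at least 4. The Ccne1 window held neither set of letters, which says only that they are not in these 300 bases. Any E2F form was present in 9.57% of all windows and an E-box in 7.15%. Of the 10 genes, 7 had a promoter entry (9 windows). Cdkn2c had an E2F match 25 bases before 1 of its starts and an E-box 34 bases after the other, Cdk6 had 1 E-box, and the windows of Cdkn1b and Ccnd3 had neither. Ccnd1, Ccnd2 and Ccne2 have no entry. The cut-offs of 3 E2F matches and 4 E-boxes were set to the counts seen in the Cdk2 and Cdk4 windows. Whether such matches go with a change after knockdown was not tested. These matches describe letters and not bound factors.

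The kinases and cyclin D2 were the most abundant transcripts of the pathway. To compare genes, CPM was divided by the deposited length of each gene, which for nearly all genes is the union of its exons. On that scale Cdk4 had a median over the 14 libraries of 165.9 CPM per kilobase, followed by Cdk2 at 30.7, Ccnd2 at 28.6 and Cdk6 at 21.8 CPM per kilobase. Ccne1 (16.9), Ccne2 (13.7), Cdkn2c (13.2), Ccnd3 (10.8) and Cdkn1b (8.60 CPM per kilobase) were lower. Ranges of neighbours in this order overlapped across libraries except between Cdk4 and Cdk2. The place of Ccnd3 rests on the length used: with the longest annotated transcript its median was 24.5 CPM per kilobase and it moved from place 8 to place 5.

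**Figure D1:**
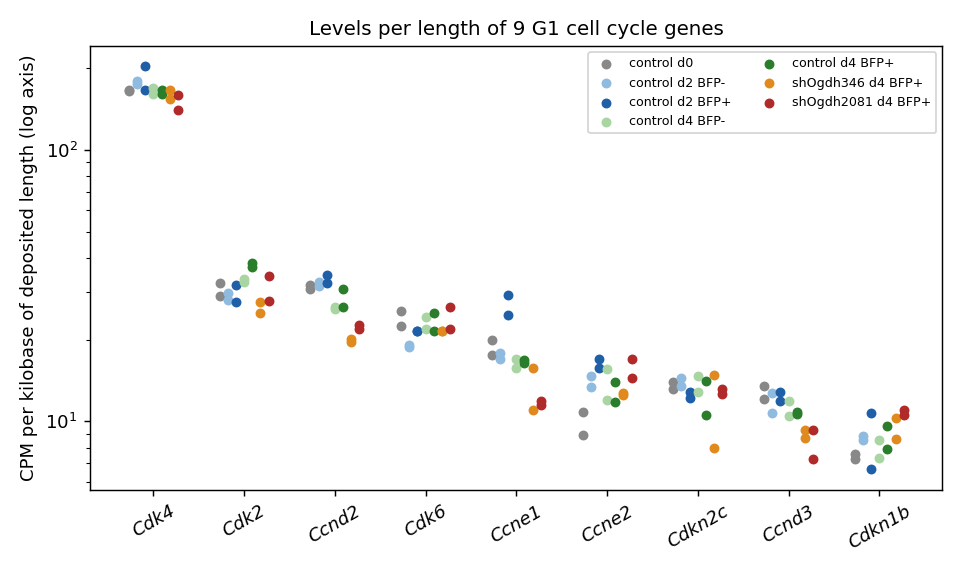
Level of each gene in CPM per kilobase of deposited length on a log axis, 1 point for each of the 14 libraries, with the genes ordered by their median. Cdk4 stands above the rest in every library, from 140 to 204 CPM per kilobase, and Ccnd1 is not drawn because it had 0 counts in 10 libraries.

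Cyclin D1 transcript was at or near 0. Ccnd1 (7:144929931-144939925, minus strand, GRCm38) had 5 counts in all 14 libraries together: 1 each in control BFP negative replicate 2 and control BFP positive replicate 1 of day 4, 1 in shOgdh346 replicate 1 and 2 in shOgdh2081 replicate 2. A count of 0 allows up to 3 counts, which among the 10 libraries at 0 is 0.691 CPM in the deepest and 3.28 CPM in the shallowest. In the annotation 1100 of its exon bases (23.4%) also belong to LTO1 on the opposite strand, so even these few reads cannot be assigned with certainty. No fold change is given for Ccnd1.

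Cyclin D2 was the D cyclin with the most transcript, and its level was lowest in the cells with an Ogdh hairpin. Ccnd2 (6:127125162-127152193, minus strand) measured 299.5 and 289 CPM at day 0, 297 and 308 CPM in BFP negative and 326 and 305 CPM in BFP positive control cells of day 2, 247 and 244 CPM in BFP negative and 249 and 289 CPM in BFP positive control cells of day 4, 189.9 and 185 CPM for shOgdh346, then 214 and 206 CPM with shOgdh2081. All 4 Ogdh libraries lay below all 10 control libraries. In the order of group means the day 2 and day 0 groups overlapped in range, and each step from day 0 down to shOgdh346 separated groups whose 2 libraries did not overlap, by under 2 CPM at the steps to and from control BFP positive cells of day 4. Per deposited length, Ccnd2 made up 68.4% to 75.8% of the summed D cyclin level in every library. This share rests on the length used. By deposited length the medians were 28.6 CPM per kilobase for Ccnd2 and 10.8 for Ccnd3. With the longest transcript they were 42.4 and 24.5 CPM per kilobase, so that the share of Ccnd2 is lower.

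Cyclin D3 lay below all 10 control libraries in the knockdown cells too, with less distance. Ccnd3 (17:47505051-47599691, plus strand) measured 106 and 118 CPM at day 0, 112 and 94.0 CPM in BFP negative and 113 and 104 CPM in BFP positive control cells of day 2, 104 and 91.5 CPM in BFP negative and 95.2 and 93.3 CPM in BFP positive control cells of day 4, 81.6 and 76.2 CPM for shOgdh346, then 63.6 and 81.7 CPM with shOgdh2081. The 5 control groups overlapped with their neighbours in the order of means, as did the hairpins with each other. The shallowest library gave the lowest value. Of its exon bases 4.11% are shared with Bysl on the opposite strand, and whether reads were counted by strand is not stated in the sources used here.

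Cyclin E1 showed the widest range of the tested members, with a highest library 2.65-fold above the lowest, and its peak was in control BFP positive cells of day 2. Ccne1 (7:38097984-38107534, minus strand) measured 53.2 and 46.9 CPM at day 0, 47.5 and 45.0 CPM in BFP negative and 65.8 and 77.7 CPM in BFP positive control cells of day 2, 41.8 and 45.2 CPM in BFP negative and 43.5 and 44.8 CPM in BFP positive control cells of day 4, 29.3 and 41.9 CPM for shOgdh346, then 30.7 and 31.8 CPM with shOgdh2081. Both BFP positive libraries of day 2 lay above all others. The shallow shOgdh346 library, at 41.9 CPM, overlapped the BFP negative cells of day 4, and the other 3 Ogdh libraries were the lowest of the series.

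Cyclin E2, the other CDK2 partner, was lowest at day 0. Ccne2 (4:11191351-11204779, plus strand) measured 38.0 and 31.2 CPM at day 0, 46.7 and 51.3 CPM in BFP negative and 59.2 and 55.2 CPM in BFP positive control cells of day 2, 42.0 and 54.3 CPM in BFP negative and 41.0 and 49.0 CPM in BFP positive control cells of day 4, 43.7 and 44.5 CPM for shOgdh346, then 59.2 and 50.4 CPM with shOgdh2081. Day 0 lay below every other group, and the other groups overlapped with their neighbours in the order of means. Per length, Ccne1 gave 64.8% to 66.3% of the summed E cyclin level at day 0 and 54.6% to 58.2% in control BFP positive cells of day 4. It gave 46.9% to 55.3% with shOgdh346, which overlapped those control cells, and 40.5% to 45.3% with shOgdh2081. These shares are a description with no test. Ccne2 shares 17.4% of its exon bases with Ints8 on the opposite strand.

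CDK2, the kinase of the E cyclins, was highest in control BFP positive cells of day 4. Cdk2 (10:128697939-128705031, minus strand) measured 200.5 and 181 CPM at day 0, 185 and 174 CPM in BFP negative and 172 and 197 CPM in BFP positive control cells of day 2, 208 and 203 CPM in BFP negative and 229.6 and 239 CPM in BFP positive control cells of day 4, 171 and 155.8 CPM for shOgdh346, then 213 and 172 CPM with shOgdh2081. Both BFP positive control libraries of day 4 stood above all others. The shOgdh346 libraries were the lowest group, while those with shOgdh2081 overlapped day 0, both day 2 groups and the BFP negative cells of day 4.

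CDK4 and CDK6, the partners of the D cyclins, varied little. Cdk4 (10:127063534-127067920, plus strand) measured 538 and 534 CPM at day 0, 569.5 and 583 CPM in BFP negative and 661 and 542 CPM in BFP positive control cells of day 2, 549.5 and 522 CPM in BFP negative and 540.0 and 522 CPM in BFP positive control cells of day 4, 540.0 and 499.8 CPM for shOgdh346, then 455 and 516 CPM with shOgdh2081. Apart from the step between BFP negative cells of day 2 and of day 4, neighbours in the order of means overlapped. Tspan31 on the opposite strand shares 19.7% of its exon bases.

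Cdk6 (5:3341485-3531008, plus strand) measured 358 and 313 CPM at day 0, 262 and 268 CPM in BFP negative and 302 and 302 CPM in BFP positive control cells of day 2, 307 and 338 CPM in BFP negative and 301 and 350.2 CPM in BFP positive control cells of day 4, 301 and 300.4 CPM for shOgdh346, then 368 and 307 CPM with shOgdh2081. BFP negative cells of day 2 were the lowest, below every other library. Its range, 1.41-fold from lowest to highest library, was the narrowest of the tested members. Stretches of up to 233 bases of its transcripts match those of 110 other genes at 95% identity or more, so some of its reads may map to several places. Cdk4 held 84.2% to 90.4% of the per-length sum of both kinases in every library.

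Of the inhibitors, p27 had its highest group mean with shOgdh2081. Cdkn1b (6:134920401-134925513, plus strand) measured 34.4 and 33.2 CPM at day 0, 39.0 and 40.1 CPM in BFP negative and 30.3 and 49.1 CPM in BFP positive control cells of day 2, 33.3 and 38.9 CPM in BFP negative and 43.9 and 35.9 CPM in BFP positive control cells of day 4, 46.8 and 39.4 CPM for shOgdh346, then 48.2 and 50.2 CPM with shOgdh2081. The hairpin libraries ran from 39.4 to 50.2 CPM. Within that range lay control BFP positive replicate 2 of day 2 (49.1 CPM) and replicate 1 of day 4 (43.9 CPM). Control BFP negative replicate 2 of day 2 (40.1 CPM) also lay within it. The p18 gene Cdkn2c (4:109660876-109667189, minus strand) ran from 21.4 CPM in the shallow shOgdh346 library to 39.7 CPM in the other library of that hairpin, with a median of 35.4 CPM over all 14. Its 2 extremes therefore came from the same group.

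**Figure D2:**
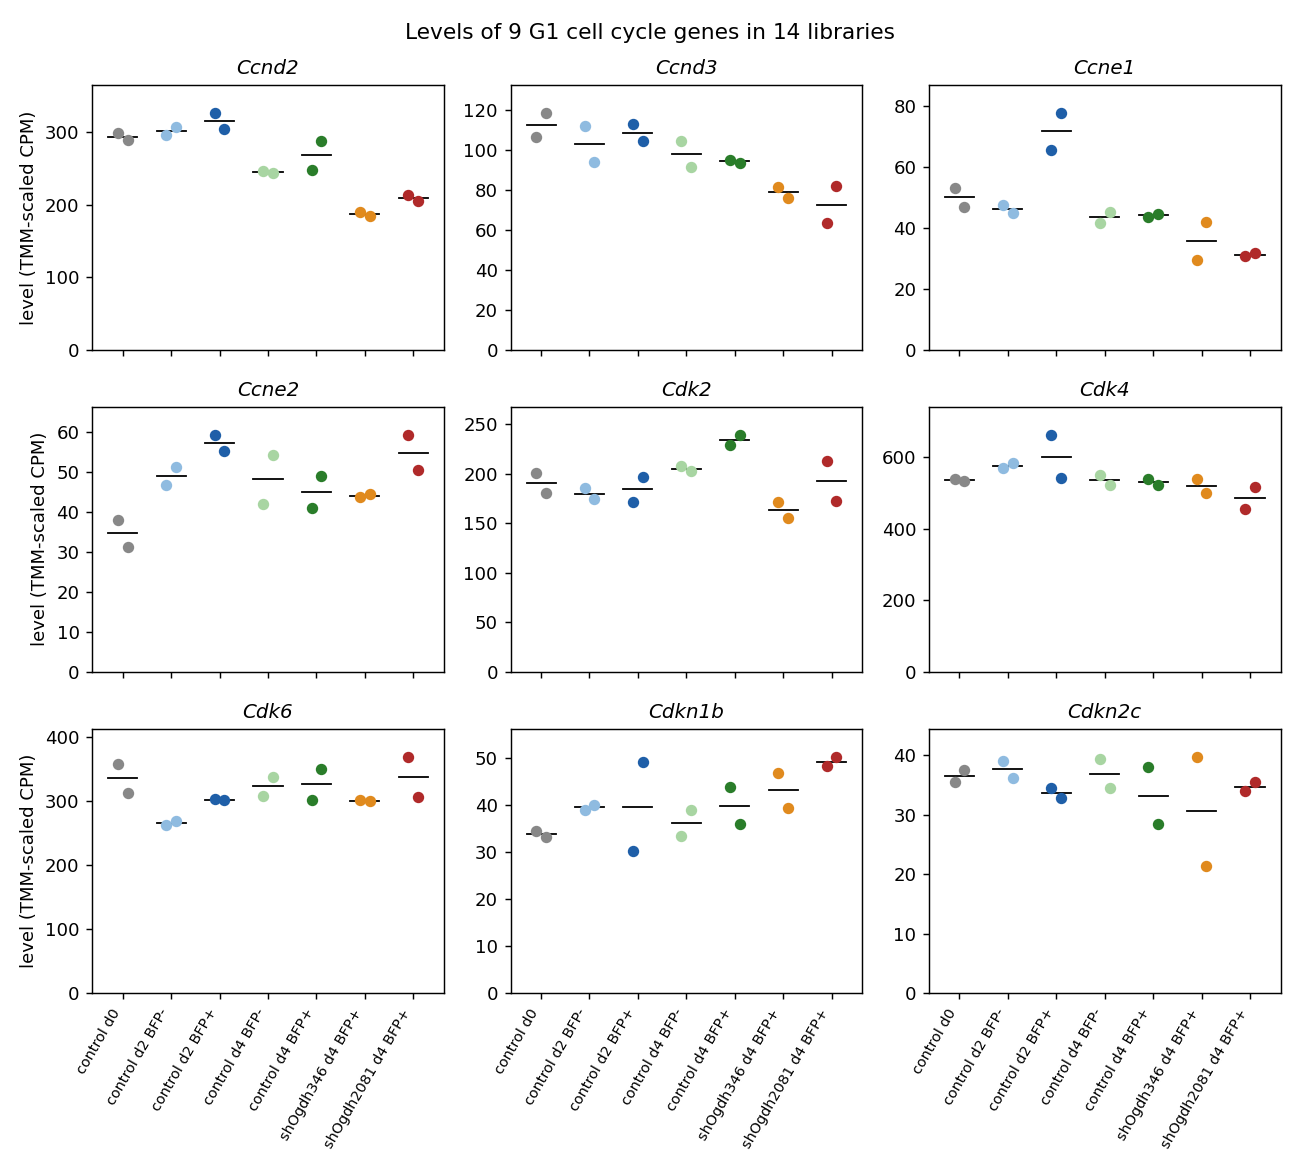
CPM of each of the 9 tested genes by group, 1 point for each library and a bar at the mean of the 2, with 1 panel and its own axis for each gene. Ccnd2 and Ccnd3 fall below all control libraries in the 4 Ogdh libraries, Ccne1 peaks at 65.8 and 77.7 CPM in control BFP positive cells of day 2, and Cdkn2c shows no order among groups.

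Levels differed among the 7 groups for 8 of the 9 tested genes (edgeR quasi-likelihood F test, Benjamini-Hochberg adjusted over 10791 genes, called under 0.05). The background is high, since 49.3% of all genes tested were called in that test. Adjusted p was lowest for Ccnd2 (8.9e-12) and Ccne1 (1.21e-08), followed by Cdk2 (0.000183), Ccnd3 (0.000193), Ccne2 (0.00215), Cdk6 (0.0101), Cdkn1b (0.0319) and Cdk4 (0.0322). Cdkn2c did not pass (0.981).

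Ogdh knockdown was followed by lower Ccnd2, Ccne1 and Cdk2, that is a D cyclin, an E cyclin and the kinase of the E cyclins. Against control BFP positive cells of day 4, with both hairpins averaged, 3 of 9 members fell, 0 rose and 6 did not pass, where 8.36% of all genes fell and 7.72% rose (16.1% called in either direction). Ccnd2 fell by 25.9% (log2 fold change -0.43 ± 0.07, standard error, adjusted p = 1.87e-05). Cdk2 fell by 25.2% (-0.42 ± 0.08, adjusted p = 7.98e-05) and Ccne1 by 27.8% (-0.47 ± 0.14, adjusted p = 0.011). The median log2 fold change of the 9 was -0.07, and over all genes it was 0.00. A fall in bulk RNA does not tell fewer cells that express a gene apart from less RNA in each cell.

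The other 6 members gave these differences: Ccnd3 -0.26 ± 0.10 (adjusted p = 0.0683), Cdkn1b 0.23 ± 0.14 (0.267), Ccne2 0.11 ± 0.13 (0.616), Cdk4 -0.07 ± 0.07 (0.571), Cdk6 -0.05 ± 0.08 (0.737) and Cdkn2c 0.06 ± 0.15 (0.84). The approximate 95% interval of Cdk4 was -0.20 to 0.07 and that of Cdk6 was -0.19 to 0.10, whereas those of Cdkn1b (-0.04 to 0.49) and Cdkn2c (-0.23 to 0.35) were wider. A missed threshold does not show that these levels were equal.

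Each hairpin taken alone gave the same 3 members as calls. With shOgdh346, where 11.2% of all genes were called, Ccnd2 changed by -0.51 ± 0.09 (adjusted p = 2.67e-05), Cdk2 by -0.49 ± 0.09 (0.00011) and Ccne1 by -0.46 ± 0.15 (0.0431). With shOgdh2081, where 11.6% were called, Ccnd2 changed by -0.36 ± 0.09 (0.00378), Cdk2 by -0.34 ± 0.09 (0.00967) and Ccne1 by -0.48 ± 0.16 (0.0385). These 2 comparisons share their control libraries. The direct test between the hairpins called 0 of the 9 members in edgeR and 0.0834% of all genes. An unadjusted p under 0.05 was reached by 0 members, and DESeq2 called 0. The difference (shOgdh2081 minus shOgdh346) was 0.15 for Ccnd2 (95% interval -0.03 to 0.33), 0.15 for Cdk2 (-0.04 to 0.34), -0.03 for Ccne1 (-0.35 to 0.30) and 0.26 for Ccne2 (-0.03 to 0.54).

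**Figure D3:**
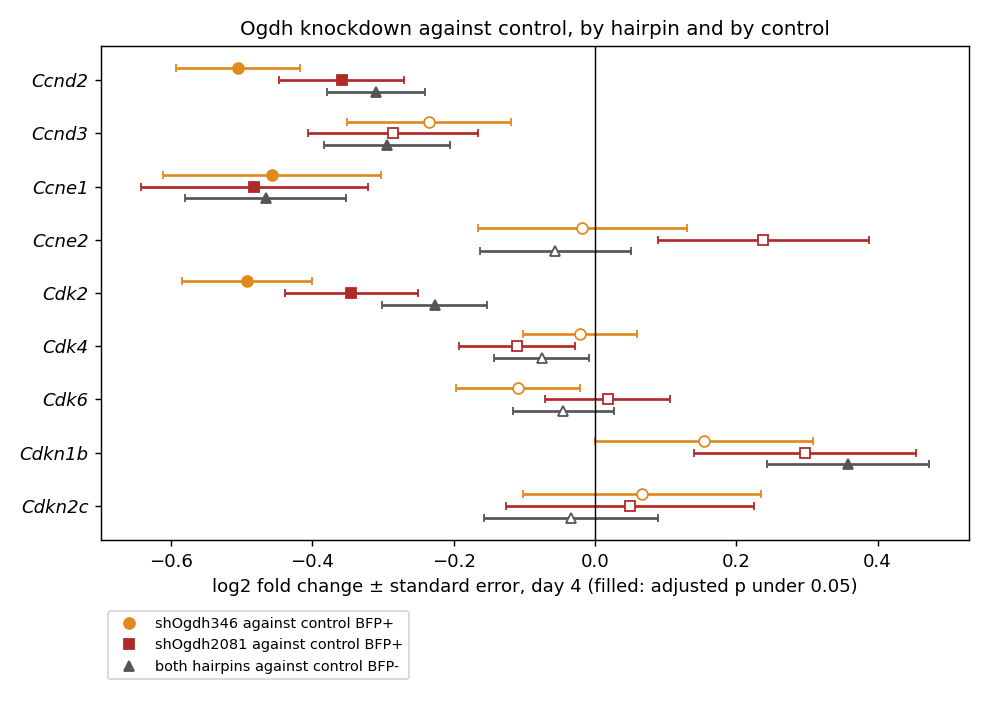
Log2 fold change ± standard error of the 9 tested genes at day 4 for shOgdh346 and shOgdh2081 against control BFP positive cells and for both hairpins against control BFP negative cells, with filled marks for adjusted p under 0.05. Ccnd2, Ccne1 and Cdk2 are filled and left of 0 in all 3 comparisons, while Ccnd3 (lower) and Cdkn1b (higher) are filled only against BFP negative cells.

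The call for Ccne1 with both hairpins depended on single libraries. It was lost without shOgdh346 replicate 1 (-0.28, adjusted p = 0.278), without shOgdh2081 replicate 2 (-0.49, 0.0626), and without control BFP positive replicate 1 (-0.48, 0.136) or replicate 2 (-0.46, 0.0761). It was also lost with DESeq2 (-0.44, adjusted p = 0.123) and with every library thinned to the depth of the shallowest (-0.16, 0.729), a setting under which Ccnd2 gave -0.29 (0.0625). Ccnd3, not called with all libraries, passed without shOgdh2081 replicate 2 (-0.40, 0.0351). Without the shallower library of each hairpin the 3 calls stood, at -0.43 for Ccnd2 (0.00034), -0.44 for Cdk2 (0.000261) and -0.52 for Ccne1 (0.00881).

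For shOgdh346 alone, Ccnd2 and Cdk2 kept their calls whichever library was left out. Its call for Ccne1 was lost without its own replicate 1 (-0.07, adjusted p = 0.93) or without control BFP positive replicate 1 (-0.47, 0.213) or replicate 2 (-0.44, 0.152). It was also lost with DESeq2 (-0.40, 0.315), with no filter on low counts (-0.45, 0.093) and with a block for the numbering of the library sets (-0.45, 0.0507). For shOgdh2081 alone, no call of the 3 stood in every such fit. Ccnd2 lost its call without shOgdh2081 replicate 2 (-0.33, 0.143) or control replicate 2 (-0.26, 0.124). Cdk2 lost it without shOgdh2081 replicate 2 (-0.15, 0.61), control replicate 1 (-0.37, 0.0752) or control replicate 2 (-0.32, 0.0733). Ccne1 lost it without any 1 of the 4 libraries, at -0.53 to -0.47 (adjusted p = 0.0869 to 0.305). DESeq2 also lost Cdk2 (-0.33, 0.0745) and Ccne1 (-0.49, 0.183), and with no filter Ccne1 gave -0.51 (0.0514).

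Against control BFP negative cells of day 4, in which the hairpin was not induced, 4 members were lower and 1 was higher, where 10.3% of all genes were lower and 10.5% higher (20.8% in all). With both control populations of day 4 as the control, where 26.3% of genes were called, the same 5 members passed. Ccnd2 (-0.31 ± 0.07, adjusted p = 0.000726), Ccnd3 (-0.29 ± 0.09, 0.0128), Ccne1 (-0.47 ± 0.11, 0.00189) and Cdk2 (-0.23 ± 0.07, 0.0213) fell. Cdkn1b rose by 28.2% (0.36 ± 0.12, 0.0197). The comparison with BFP negative cells combines knockdown with induction and sorting. For Cdkn1b, control BFP positive against BFP negative cells of day 4 gave 0.13 ± 0.14. Knockdown against BFP positive cells gave 0.23 ± 0.14 (adjusted p = 0.267). No alternative fit was run with BFP negative cells as the control. Cdk2 had its highest group mean of the series in the BFP positive cells of day 4, and its change here stands beside -0.42 against those cells. Bysl, which overlaps Ccnd3, also fell in this comparison (-0.24 ± 0.09, adjusted p = 0.0363), and the part of shared reads in the change of Ccnd3 was not tested.

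The 4 Ogdh libraries lay below all 10 control libraries for Ccnd2 and Ccnd3, as they did for 8.1% of genes. Below the 4 control libraries of day 4 lay the same 2 members, against 13.3% of genes. No member had all 4 Ogdh libraries above the 10 controls, as 6.89% of genes did, or above the 4 of day 4, as 11.2% did.

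Summed per length, the D cyclins gave 36.4 to 47.6 CPM per kilobase in the 10 control libraries and 28.3 to 31.3 CPM per kilobase in the 4 Ogdh libraries. The ratio of that sum to Cdkn1b was 3.88 to 7.15 in control libraries and 2.83 to 3.28 in Ogdh libraries. With the longest transcript as length the ratio was 6.65 to 12.1 in controls and 4.74 to 5.66 in Ogdh libraries, so that the groups did not overlap by either length. Both are descriptions built from the members above and carry no test.

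Erythroid markers moved in the same libraries. The summed level of 6 of them was 869 to 901 CPM in control BFP positive cells of day 4, 994 to 1078 CPM with shOgdh346 and 953 to 999 CPM with shOgdh2081, as CPM of the whole library. At day 0 it was 1047 to 1047 CPM, and in control BFP negative cells of day 4 it was 916 to 1011.5 CPM. The Ogdh libraries thus lay above the control BFP positive cells of day 4 and not above all controls. Both hairpins overlapped the BFP negative cells of day 4. Car1 (log2 fold change 1.49), Hbb-bt (1.23) and Hba-a1 (0.49) rose in edgeR, whereas Gata1 (-0.04, adjusted p = 0.78), Klf1 (-0.06, 0.678) and Epor (-0.10, 0.488) did not pass. Markers of the mast cell list moved too, in both directions. Ms4a2, a subunit of the IgE receptor, rose (1.03, adjusted p = 5.95e-11), the transcription factor gene Gata2 fell (-1.03, 3.9e-14), and Cpa3 gave 1.11 (0.0744). The summed level of the 7 mast cell markers was 223 to 226 CPM in control BFP positive cells of day 4, 201 to 213 CPM with shOgdh346 and 203 to 216 CPM with shOgdh2081, and Tpsb2 had 0 counts in all 14 libraries. Of the myeloid progenitor list Csf2rb, a cytokine receptor subunit at 1.66 to 15.3 CPM, rose (1.08, 0.00799). Kit (0.10, adjusted p = 0.333) and Ptprc (0.29, 0.403) of that list did not pass. Its genes Cd34, Mpo, Spi1, Flt3 and Cebpa had too few counts to be tested. The part of these markers in the levels of the cyclins and kinases was not tested.

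In cells with the control hairpin, 1 member differed between induced and uninduced cells. At day 2, BFP positive cells had 52.8% more Ccne1 than BFP negative cells (0.61 ± 0.14, adjusted p = 0.00186), and 6.23% of all genes were called. DESeq2 gave 0.63 for Ccne1 (adjusted p = 0.0608) and thinned libraries 0.50 (0.253), so that both lost the call. The other 8 members did not pass. At day 4, edgeR called 0 members and 0.0741% of all genes for induced against uninduced cells. There 1 member had an unadjusted p under 0.05, and DESeq2 called 0. The difference of Ccne1 between those days was -0.61 ± 0.19 (adjusted p = 0.14), so a change of the effect with time was not shown. In that test edgeR called 0 members and 0.658% of genes, 2 members had an unadjusted p under 0.05, and DESeq2 called 0.

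Against day 0, Ccne2 rose by day 2 in both populations in edgeR, and Ccne1 rose in BFP positive cells. In BFP negative cells Ccne1 gave -0.12 ± 0.14 (adjusted p = 0.641). In BFP positive cells of day 2, where 17.9% of genes were called, Ccne2 rose by 66.1% (0.73 ± 0.16, adjusted p = 0.000427) and Ccne1 by 40.1% (0.49 ± 0.14, 0.00933). In BFP negative cells of day 2 (10.3% called) Ccne2 rose by 42.4% (0.51 ± 0.15, 0.0187) and Cdk6 fell by 20.9% (-0.34 ± 0.09, 0.00535). Ints8, which overlaps Ccne2, changed by 0.37 ± 0.12 (0.0233) and 0.13 ± 0.11 (0.532) in the same comparisons. The 2 comparisons share the day 0 libraries. In BFP negative cells DESeq2 and thinned libraries each called 0 members higher, so that both lost the call for Ccne2. In BFP positive cells each of them called 1 member higher, where edgeR with all counts called 2.

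Against day 0, 2 members passed in BFP negative cells of day 4 and 1 in BFP positive cells. In BFP negative cells (8.03% called) Ccne2 was higher (0.52 ± 0.14, adjusted p = 0.0105) and Ccnd2 lower (-0.26 ± 0.08, 0.0253). In BFP positive cells (7.11% called) the single call was Cdk2, higher by 22.6% (0.29 ± 0.09, 0.032), and Ccnd2 gave -0.14 ± 0.08 (0.345). That call for Cdk2 was lost when any 1 of the 4 libraries was left out. A difference between these 2 populations was not shown, since the direct test of induced against uninduced cells at day 4 gave 0.19 for Cdk2, 0.12 for Ccnd2 and -0.17 for Ccne2 with an adjusted p of 1.0 for each.

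From day 2 to day 4, Ccnd2 fell in both populations of control cells in edgeR. It changed by -0.30 ± 0.08 in BFP negative cells (adjusted p = 0.00806, 6.84% of genes called) and by -0.25 ± 0.08 in BFP positive cells (0.0425, 11.9% called). In BFP negative cells Cdk6 rose (0.29 ± 0.08, 0.0196). In BFP positive cells Ccne1 fell by 37.3% (-0.67 ± 0.14, 0.000507) and Cdk2 rose by 28.5% (0.36 ± 0.09, 0.00555). DESeq2 and thinned libraries each called 0 members in BFP negative cells. In BFP positive cells DESeq2 called 1 member lower and 0 higher. Thinned libraries called 1 lower and 1 higher there, as did the run with no filter on low counts. The fall of Ccnd2 in BFP positive cells was lost without day 4 replicate 1 (-0.15, 0.475) or day 2 replicate 1 (-0.20, 0.387), and the rise of Cdk2 without day 2 replicate 1 (0.24, 0.336) or day 4 replicate 2 (0.32, 0.079). Cdk4, not called here with all libraries (-0.19 ± 0.08, 0.112), passed without day 2 replicate 2 (-0.34, 0.00672).

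In BFP negative cells the calls also turned on single libraries, among them the deepest of the series, day 4 replicate 2. Without it Ccne2 against day 0 gave 0.26 (adjusted p = 0.544), Ccnd2 against day 0 gave -0.26 (0.174), and from day 2 to day 4 Ccnd2 gave -0.30 (0.0876) and Cdk6 0.20 (0.336). From day 2 to day 4 the call was also lost without day 2 replicate 2 for Ccnd2 (-0.27, 0.0978), and without day 2 replicate 1 (0.27, 0.0662) or replicate 2 (0.31, 0.0839) for Cdk6. Against day 0, Ccnd2 at day 4 lost its call without day 0 replicate 1 (-0.24, 0.241) or replicate 2 (-0.30, 0.117). Ccne2 lost it without day 0 replicate 2 at day 2 (0.38, 0.265) and at day 4 (0.38, 0.27), and at day 2 also without day 2 replicate 2 (0.42, 0.272). Without day 0 replicate 1 the fall of Cdk6 at day 2 gave -0.24 (0.228). For the E cyclins at day 2 in BFP positive cells, Ccne2 kept its call in every alternative run, and Ccne1 lost it without day 0 replicate 2 (0.40, 0.119) or day 2 replicate 2 (0.40, 0.0908). Without the latter Cdk4 gave 0.31 against day 0, where all libraries gave 0.18 ± 0.08 (adjusted p = 0.113). Tspan31, which overlaps Cdk4, rose in that comparison with all libraries (0.49 ± 0.16, adjusted p = 0.0257). The part of shared reads in the value of Cdk4 was not tested.

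**Figure D4:**
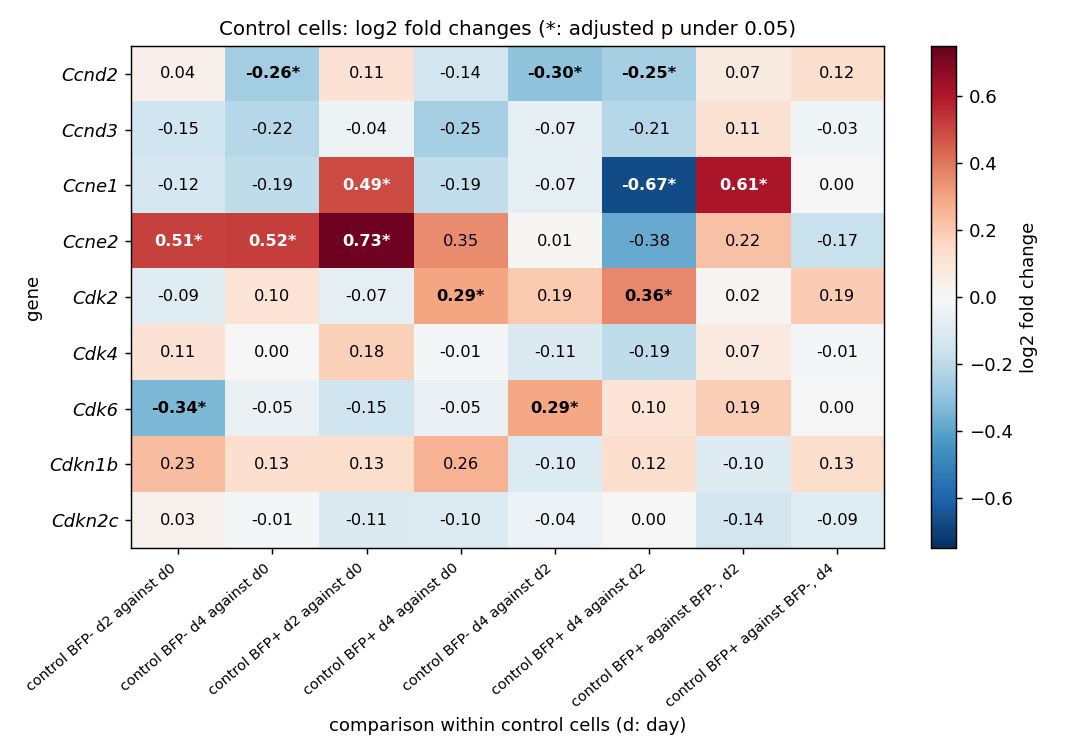
Log2 fold change of the 9 tested genes (rows) in the 8 comparisons within control cells (columns), with a star for adjusted p under 0.05. The 13 starred cells include Ccne2 above day 0 in 3 columns, Ccnd2 falling to day 4 in 3 columns and no cell for Ccnd3, Cdk4, Cdkn1b or Cdkn2c.

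Genes with the most similar profile were taken by Pearson correlation of the 7 group means of log2 CPM, among 4705 genes that also differed among the groups and averaged at least 10 CPM. With only 7 points per gene such values are descriptions, and they carry no p. Ccnd2 was most like Slc9a3r1 (r = 0.996), Ybx3 and Lamtor1, and Ccnd3 was most like Slc25a39 (0.996), Gda and Cmss1. Ccne1 was most like Rrm1 (0.992), which encodes the large subunit of ribonucleotide reductase, then Cox7a2 and the histone gene H2afz. Ccne2 was closest to Palb2 (0.957), Pank2 and Creld1. Among kinases, Cdk4 was closest to Ndufv3 (0.992), Adk and Mrps17, Cdk6 to Khdrbs1 (0.979), Eif2ak2 and Asph, and Cdk2 to Tmem164 (0.928), Dusp6 and Unc13d. Cdkn1b was closest to Slc25a36 (0.986), Laptm4a and Usp45.

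Downstream of the kinases, genes known as E2F targets were lower after knockdown. Of 23 such genes, all tested, 13 fell, 0 rose and 10 did not pass against control BFP positive cells of day 4, with a median log2 fold change of -0.24 (all genes: 0.00, with 8.36% falling). DESeq2 called 8 of the 23 lower and 0 higher. Ung, a uracil-DNA glycosylase, fell by 0.67 ± 0.13 on the log2 scale (adjusted p = 0.000201). Tk1, thymidine kinase, gave -0.54 ± 0.08 (8.96e-07), the GINS subunit gene Gins1 gave -0.45 ± 0.13 (0.0085) and the helicase subunit gene Mcm4 gave -0.43 ± 0.07 (2.8e-06). Against BFP negative cells 18 of the 23 fell and 0 rose, where 10.3% of all genes fell. Within control cells, which had no Ogdh hairpin, 7 of the 23 fell and 0 rose from day 0 to day 4 in BFP negative cells (8.03% of all genes called), and 8 fell and 0 rose in BFP positive cells (7.11% called). At day 2 BFP positive cells had 1 of 23 higher than BFP negative cells and 0 lower (6.23% called).

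For the lists that follow, the share over all genes in the same comparison was 8.36% lower and 7.72% higher. Among 18 genes of the RB family, the E2F and DP factors and their partners, 3 fell, 2 rose and 13 did not pass (median -0.09). E2f3, an activating E2F, fell (-0.53 ± 0.11, adjusted p = 0.000459), as did its dimer partner Tfdp1 (-0.40 ± 0.07, 2.67e-05) and the repressor E2f8 (-0.36 ± 0.11, 0.0171). Lin9, a subunit of the DREAM and MuvB complexes, rose (0.42 ± 0.12, 0.0136), and so did the pocket protein gene Rbl2 (0.34 ± 0.12, 0.0356), which is named beyond the rule after its value was seen. DESeq2 called 2 of the 18 lower and 0 higher. Taken by hairpin, E2f3 was called with each. Tfdp1 and E2f8 were called with shOgdh346 and not with shOgdh2081, and Lin9 the other way round. Rbl2 was called with neither hairpin alone. The direct test between the hairpins called 0 of the 18, and 1 had an unadjusted p under 0.05.

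The other CDK inhibitors showed no call. Of 6 genes, 5 were tested and 0 passed in edgeR (median 0.02), while 0 had an unadjusted p under 0.05 and DESeq2 called 0. Cdkn1c had 0 counts. Among 14 tested genes for the turnover of G1 cyclins and p27, 1 fell, 0 rose and 13 did not pass (median -0.09). The gene that fell was Fbxo31, an F-box protein that targets cyclin D1 (-0.39 ± 0.14, adjusted p = 0.0417), and DESeq2 called 0 of the 14. Fbxo31 was called with neither hairpin alone. That 1 call in 14 is no more than the share of all genes that fell. Among 9 genes of CDK activation, the phosphatase gene Cdc25b rose (0.59 ± 0.09, 9.53e-07), Cdc25a, which acts on CDK2, fell (-0.24 ± 0.08, 0.0375), and 7 did not pass. DESeq2 called 1 of these 9 higher and 0 lower. Cdc25b was called with each hairpin alone and Cdc25a with neither.

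The S, G2 and M cyclins with Cdk1 made 5 tested genes, of which 2 rose, 0 fell and 3 did not pass (median 0.17). Cyclin B1, Ccnb1, rose by 21.7% (0.28 ± 0.08, adjusted p = 0.00604) and cyclin F, Ccnf, by 24.5% (0.32 ± 0.09, 0.00648). Ccnb1 was called with each hairpin alone, and Ccnf with shOgdh2081 and not with shOgdh346. Ccnf averaged 166 CPM in control cells of day 0, against 147 CPM with shOgdh346 and 164 CPM with shOgdh2081, so it did not exceed all controls. Among 15 tested regulators of D cyclin and p27 transcription, 3 rose, 0 fell and 12 did not pass (median 0.08). These were Foxo3, a forkhead factor known to activate the p27 gene (0.37 ± 0.08, adjusted p = 0.00106), Myb (0.35 ± 0.06, 4.69e-05) and Kmt2a (0.32 ± 0.08, 0.00304). Foxo3 averaged 164 CPM with shOgdh346 and 176 CPM with shOgdh2081. Control cells of day 2 were in that range, at 169 CPM (BFP negative) and 180 CPM (BFP positive). Against BFP negative cells of day 4, 2 of the 15 were higher and 1 lower, where 10.5% of all genes were higher and 10.3% lower. A link of Foxo3 to Cdkn1b was not tested. DESeq2 called 2 of the 15 higher and 0 lower.

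**Figure D5:**
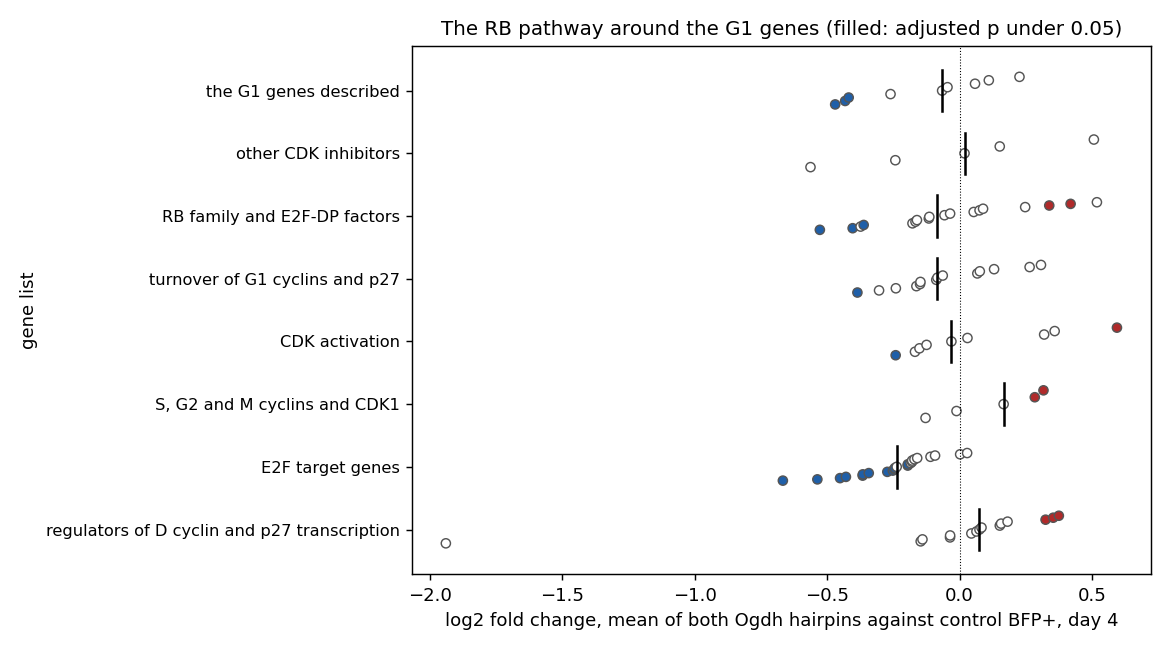
Log2 fold change of each tested gene after Ogdh knockdown (both hairpins against control BFP positive cells of day 4), grouped by list, with a black bar at the median of the list and coloured points for adjusted p under 0.05. The E2F targets have 13 of 23 points called lower and none called higher, with a median of -0.24, and the other CDK inhibitors have no called point.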

How the data were processed

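Polyadenylated RNA of 14 sorted or unsorted samples was sequenced as single-end reads of 76 bases, per the labels' protocols. The authors deposited whole-number counts per gene, not normalized, and a length per gene in bases (another unit). The labels' protocols name a human build, HTSeq and an RPKM matrix, whereas the submitters' processing notes name STAR 2.6.1a, featureCounts 1.6.3, Trimmomatic 0.36, FastQC 0.11.5 and GRCm38. The deposited counts carry mouse identifiers, and 96.36% of 53274 shared genes have the same coordinates in GENCODE M21 (GRCm38). No source used here gives the strand setting or the treatment of multiply mapping reads.

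Counts were filtered with filterByExpr (10791 genes left), scaled by TMM factors (0.968 to 1.013) and tested, two-sided, by edgeR 4.0.16 (glmQLFTest, R 4.3.3) in 1 model of all 7 groups with no covariate (7 residual and 57.6 prior degrees of freedom). The threshold for a call was 0.05 after Benjamini-Hochberg adjustment over all tested genes. Levels are TMM-scaled CPM of the tested genes' counts. Errors are standard errors of log2 fold changes, and intervals are 1.96 standard errors. Counts of 0 allow up to 3 counts (95% confidence). Those limits cover counting error only, as reads have no molecular identifiers, whereas the standard errors and intervals of the model include the spread between libraries. Total counts per library ran from 913482 to 10271698, and replicates differed by more than counting noise (chi-square per degree of freedom 1.16 to 2.71). Scripts were tested on simulated data. Alternatives were DESeq2 1.42.0, RLE scaling, other filters, blocks for replicate number and library numbering, thinning to equal depth, other controls, and leaving out libraries. The genes and the lists were chosen with earlier results of these data known. Named list genes are the called ones, up to 4 a list by size of change. A further marker gene is not reported here and is left out of the erythroid sum.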

Additional observations from a re-analysis of the deposited data

How the results depend on the processing

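Of 1471 values recomputed for the 9 tested genes, 1390 kept their side of the threshold, and 114 of these were uncalled values whose sign changed. A further 73 lost a call, 7 gained one and 1 called value reversed. The gains include those of Ccnd3 and Cdkn1b with BFP negative cells or both control populations as the control. These come from other control cells and not from another processing of the same comparison. The reversed value was Ccne1 with shOgdh346, at 0.0064 (adjusted p = 0.993) once every library was thinned to the depth of the shallowest. With DESeq2, members called numbered 1 for shOgdh2081, 0 for BFP positive against negative cells at day 2, 1 and 1 for BFP negative and positive cells of day 2 against day 0, 0 and 0 for those of day 4 against day 0, 0 and 1 for day 4 against day 2, and 4 for the 7-group test. DESeq2 called 700 genes in all for knockdown, against 1735 in edgeR. With thinned libraries, which tested 9133 genes, the counts were 1 for both hairpins together (759 genes in all), 1 for shOgdh346, 1 for shOgdh2081, 0 for induction at day 2, 1 and 1 for day 2 against day 0, 0 and 0 for day 4 against day 0, and 0 for BFP negative cells of day 4 against day 2. Ccnd2 after knockdown then gave -0.29 (0.0625) and Ccne1 -0.16 (0.729), while Cdk2, with both hairpins together, kept its call in every alternative run. With no filter on low counts 2 members were called for each hairpin alone, where Ccne1 lost its call, and 1 member for BFP negative and 0 for BFP positive cells of day 4 against day 0. Knockdown called 5 members against BFP negative cells and 5 against both control populations. Leaving out 1 library gave 2 to 3 members for both hairpins (461 to 1468 genes in all), 2 to 3 for shOgdh346, 0 to 2 for shOgdh2081, 1 to 1 for induction at day 2, 1 to 2 (BFP negative) and 1 to 2 (BFP positive) for day 2 against day 0, 0 to 2 and 0 to 0 for day 4 against day 0, 0 to 2 and 1 to 4 for day 4 against day 2, and 6 to 8 for the 7-group test. The cause was not tested, beyond the fewer counts and libraries these settings use.

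The replicate numbers did not pair the libraries: 4 of 21 pairs of groups had a correlation of deviations over 0.1 (-0.18 to 0.25). With a replicate block, 3 members and 1850 genes were called after knockdown, and no call of a member changed. With a block for the numbering of the library sets, Ccne1 with shOgdh346 (-0.45, adjusted p = 0.0507) and Cdkn1b in the 7-group test (0.0568) lost their calls, which left 2 and 7 members. The lowest count of a tested member was 25 (Cdkn2c in shOgdh346 replicate 2), and in the shallowest library Ccne1 had 28, Cdkn2c 31 and Cdkn1b 44, so depth limits these 3 genes most.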
